A study of Mus musculus with 8 samples.

Results

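CD8+ T cells of KO and WT mice were compared after 5 days of culture, using the 4 libraries that the labels place at day 5 (2 KO, 2 WT) out of 8 in the series. The other 4 libraries carry the same genotype labels at day 0, where *Satb1* goes against them, and are used here for the shared error estimate, for day 0 values beside day 5 values and for the test of the difference between days. All mice were C57BL/6, all cells were peripheral CD8+ T cells of the spleen, and the series names the strain as *Satb1* F/F; *E8I-cre*. The labels give the genotype only as KO or WT, so whether the WT mice carried the floxed alleles or the Cre transgene is not stated. The labels also give no age, no number of animals behind a library, and neither the stimulus nor the medium of the culture, which the series title calls in vitro stimulation.

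SATB1 is a nuclear protein that binds AT-rich DNA and organises chromatin loops in T cells. *E8I-cre* uses an enhancer of the *Cd8a* locus that is active in mature CD8 cells, so deletion is meant to follow thymic selection. CD8+ T cells that are activated in culture divide, acquire granzymes and perforin, and express inhibitory receptors such as PD-1 that restrain their signalling.

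Values are CPM, the counts of a gene relative to the library size scaled by trimmed mean of M-values (TMM). Fold changes are KO over WT on the log2 scale with their standard error (SE), and the false discovery rate (FDR) is the Benjamini-Hochberg adjusted p of edgeR's two-sided quasi-likelihood test over 12597 genes. A gene was called when its FDR was under 0.05. The 4 libraries held between 4170126 and 6180044 gene counts, and 3 counts, the smallest number read as signal, equalled 0.529 to 0.723 CPM. These floors and the counting interval given for low genes cover counting error only. Nothing in the labels says that replicates came from separate animals or cultures, so the p-values measure the spread between these libraries, which may be technical. Counts differed by more than sampling noise within each genotype (chi-square per degree of freedom 9.40 between the WT libraries and 4.76 between the KO libraries).

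The defining markers of CD8+ T cells were present: *Cd8b1* ranged from 1199 to 1368 CPM, while *Cd4* lay between 0.529 and 0.964 CPM. *Cd14*, *Adgre1*, *S100a8*, *S100a9* and *Itgax* had no count in any day 5 library. Other myeloid markers had a few counts: *Itgam* 3 and 2 in WT and 8 and 6 in KO, *Fcer1g* 1 and 0 in WT and 8 and 4 in KO. *Spi1* went the other way, with 1 and 2 in WT and 0 in each KO library. Of 15 tested markers of CD4 T, gamma delta T, NK, B, myeloid and dendritic cells, 0 were called by edgeR (1 at an unadjusted p under 0.05, against 14.1% of all genes tested, and 0 by DESeq2). *Ighm* (1392 to 1554 CPM), *H2-Ab1* (133 to 186 CPM), *Tcrg-C1* (79.5 to 107 CPM), *Cd79b* (66.7 to 83.3 CPM) and *Cd68* (30.7 to 68.4 CPM) were markers of other cells with reads in both genotypes, and their part in the results was not tested. *Cd68* had 30.7 and 37.1 CPM in WT and 68.4 and 46.4 CPM in KO (log2 fold change 0.76 ± 0.27 SE, FDR 0.207). *Cd79b* (0.27 ± 0.14 SE) and *Ighm* (0.13 ± 0.11 SE) were also higher in each KO library, while *H2-Ab1* and *Tcrg-C1* overlapped. All 3 tested myeloid and all 3 tested B cell markers had a positive fold change, against 1 of 4 dendritic, 1 of 2 CD4 T, 0 of 2 gamma delta T and 0 of 1 NK markers. In bulk RNA, more cells of a type and more RNA per cell cannot be told apart.

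*Satb1*, the targeted gene, was lower but not absent in KO cells. It had 96.5 and 116 CPM in the WT libraries and 56.5 and 62.3 CPM in the KO libraries (log2 fold change -0.84 ± 0.15 SE, FDR 0.0162), 0.560 of the WT level. At day 0 the libraries labelled KO stood above WT for *Satb1* (log2 fold change 0.51 ± 0.15 SE, FDR 0.125), so the day 5 decrease departed from day 0 by -1.34 ± 0.21 SE (FDR 0.0269). The day 5 call for *Satb1* was lost without either KO library (log2 fold change -0.77 without replicate 1 and -0.91 without replicate 2) or without WT replicate 2 (-0.70). A read count over the whole gene does not say which part of it was deleted.

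KO cells differed from WT cells in 205 of 12597 genes (1.63%), of which 165 were higher in KO (1.31%) and 40 lower (0.318%). The 1.63% is the share to set beside the counts of calls in the gene lists below. Members and lists were chosen with earlier results of these data known, so their counts are not independent evidence. The median change was 0.95 on the log2 scale among genes called higher and -0.91 among those called lower, and 89 of the 205 changed at least 2-fold (72 higher, 17 lower). All 205 had no overlap between the replicates of the genotypes, against 45.6% of all genes tested. Protein-coding genes made up 189 of the calls, and 16 called genes have no assigned name. The call count without each library in turn ran from 32 (without KO replicate 2) to 249 (without replicate 1 of the day 0 KO libraries), and 27 of the 205 genes were called whichever library was left out.

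**Figure D1:**
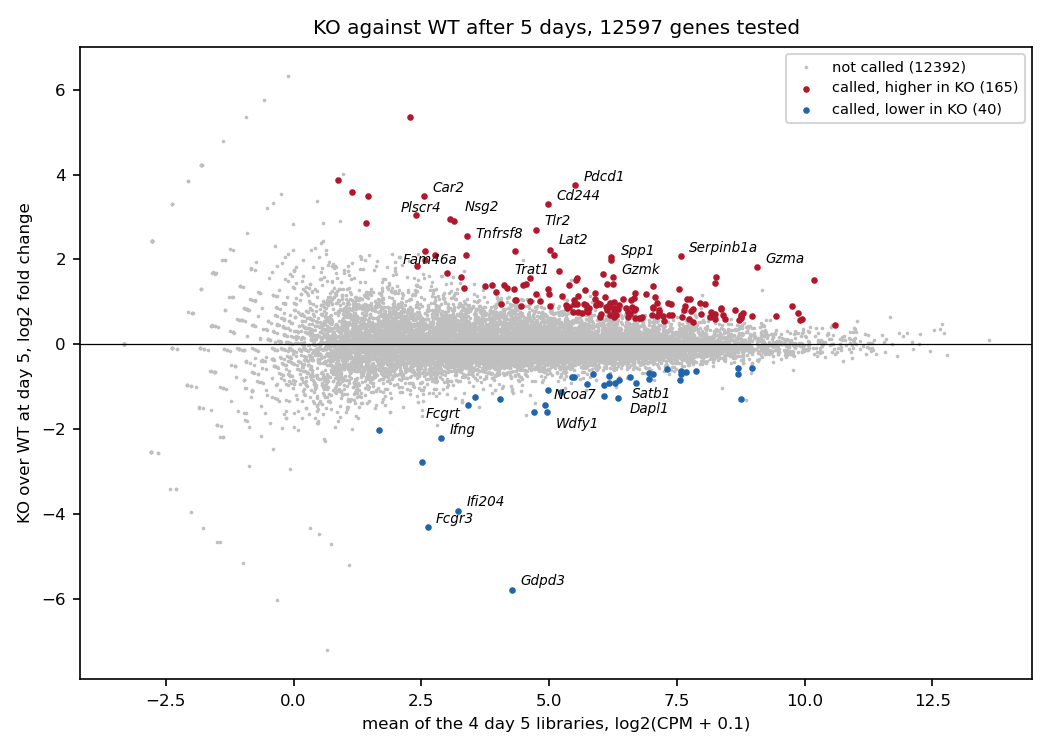
Each point is 1 of 12597 genes, placed by the mean of the 4 day 5 libraries as log2(CPM + 0.1) and by the KO over WT log2 fold change. Genes called higher in KO (165, red) outnumber those called lower (40, blue), and *Pdcd1* and *Cd244* stand out among genes of middle abundance.

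Inhibitory receptors changed in both directions in KO cells. Of 15 tested, 3 were called higher and 1 lower (26.7% called, against 1.63% of all genes), with a median log2 fold change of 0.38 beside 0.00 over all genes. *Pdcd1*, which encodes PD-1, had 8.29 and 3.86 CPM in the WT libraries and 99.3 and 69.9 CPM in the KO libraries (log2 fold change 3.75 ± 0.34 SE, FDR 0.000241, and 4.46 without WT replicate 1). *Cd244*, encoding the SLAM family receptor 2B4, had 6.53 and 4.82 CPM in WT and 55.6 and 59.1 CPM in KO (3.31 ± 0.25 SE, FDR 5.69e-05). In both genes the genotypes were far apart and did not overlap. *Cd160*, a glycosylphosphatidylinositol-linked receptor of the same ligand as BTLA, had 49.7 and 49.9 CPM in WT and 104 and 84.6 CPM in KO (0.92 ± 0.16 SE, FDR 0.0142). *Btla* itself moved the other way, from 65.1 and 75.7 CPM in WT to 35.1 and 37.7 CPM in KO (-0.95 ± 0.15 SE, FDR 0.0078). The call for *Cd160* was lost without any one of the day 5 libraries, and that for *Btla* without either KO library (highest FDR 0.179 and 0.107), whereas *Pdcd1* and *Cd244* stayed called under each of 18 alternatives and with a minimum change of 2-fold.

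The other inhibitory receptors were not called, and the following were chosen after their values were seen. *Havcr2*, encoding TIM-3, had 3.88 and 2.17 CPM in WT and 9.01 and 5.87 CPM in KO (1.27 ± 0.49 SE, FDR 0.255). *Tigit* lay between 34.9 and 42.2 CPM in WT and between 42.4 and 58.3 CPM in KO (0.38 ± 0.23 SE, FDR 0.501). *Ctla4*, the CD28 family receptor that competes for B7 ligands, was at 295 and 272 CPM in WT and 276 and 262 CPM in KO (-0.07 ± 0.20 SE, FDR 0.917, and 0.05 with an offset for GC content and exon length). Values of *Havcr2* and *Tigit* did not overlap between the genotypes, while those of *Ctla4* did. Of all genes tested, 45.6% had no overlap.

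**Figure D2:**
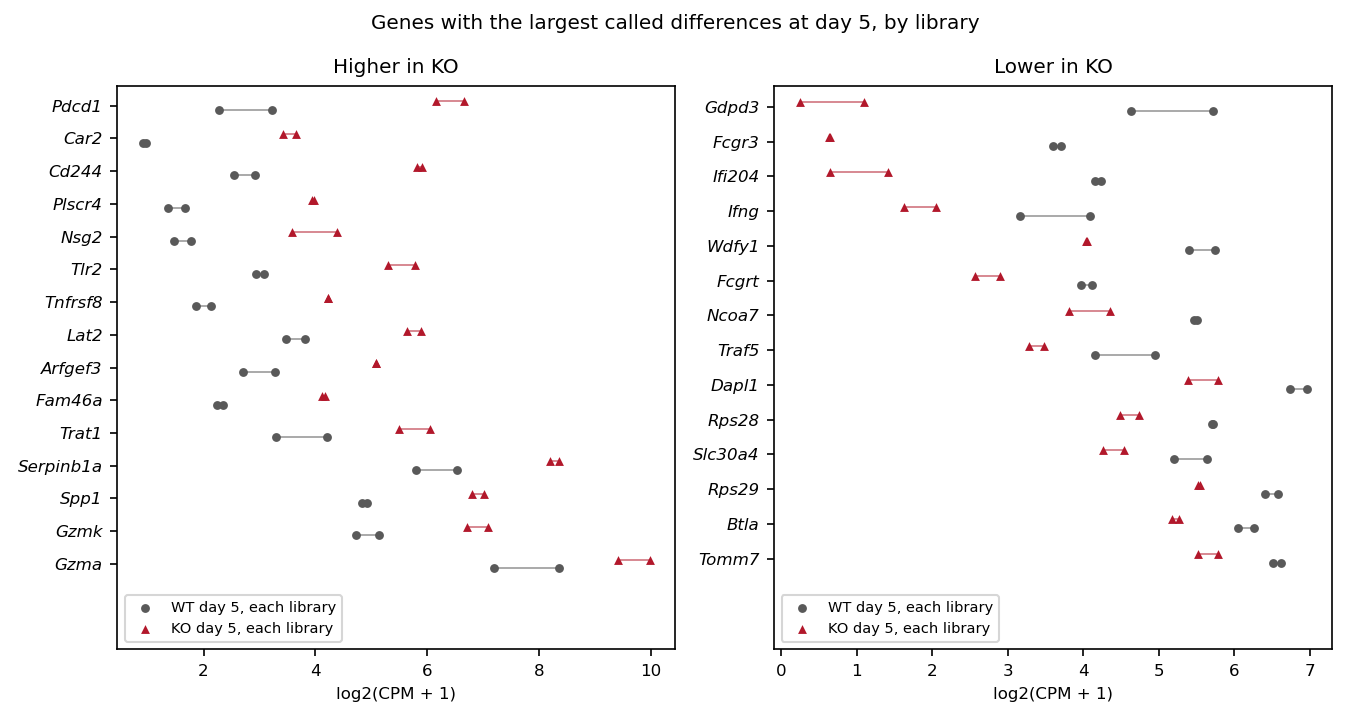
Genes with the largest called changes that have an assigned name and at least 10 CPM in the higher genotype, shown as log2(CPM + 1) in each WT library (grey circles) and each KO library (red triangles), joined within a genotype. Genes were chosen to have no overlap between the genotypes, and *Gdpd3*, *Fcgr3* and *Ifi204* lie near 0 in KO.

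Of 19 tested genes of granules and killing, 4 were called higher and 15 were not called (21.1% called, against 1.63% of all genes), with a median of 0.24. *Gzma*, a granzyme with tryptase specificity, had 326 and 146 CPM in WT and 1005 and 675 CPM in KO (1.83 ± 0.29 SE, FDR 0.00909, and 2.54 without WT replicate 1). *Gzmk*, its neighbour on chromosome 13, had 25.6 and 34.2 CPM in WT and 134 and 103 CPM in KO (1.996 ± 0.23 SE, FDR 0.00182). For both granzymes each KO library was above each WT library. *Prf1*, the pore-forming perforin, had 86.1 and 61.0 CPM in WT and 137 and 121 CPM in KO (0.81 ± 0.18 SE, FDR 0.0489), and *Stxbp2*, a fusion factor of granule release, changed by 0.59 ± 0.12 SE (FDR 0.0253). With the GC and length offset *Prf1* changed by 0.73 (FDR 0.0867) and *Stxbp2* by 0.43 (FDR 0.150), and neither was called. Both calls were also lost in the fit of the 4 day 5 libraries alone and without either KO library, WT replicate 2 or either day 0 WT library. *Prf1* was also lost with a replicate block, and *Gzma* was lost without KO replicate 1. Granzyme B, chosen after its values were seen, was the most abundant granzyme of the list: *Gzmb* had 4807 and 4429 CPM in WT and 4602 and 3925 CPM in KO (-0.12 ± 0.11 SE, FDR 0.712, and 0.02 with the offset). Reads that aligned to several places were set aside in counting, so values of granzyme genes with close copies rest on their unique reads.

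Of 24 cytokine receptors, 5 were called higher and 19 were not called (20.8% called, against 1.63% of all genes, median 0.13), and 2 genes of the list were called with the GC and length offset. *Il7r*, the receptor for the survival cytokine IL-7, had 18.3 and 29.6 CPM in WT and 49.5 and 55.1 CPM in KO (1.14 ± 0.18 SE, FDR 0.00909). *Il2rb*, the beta chain shared by the IL-2 and IL-15 receptors, had 314 and 269 CPM in WT and 491 and 528 CPM in KO (0.81 ± 0.13 SE, FDR 0.00989). *Il10ra*, the ligand-binding chain of the IL-10 receptor, had 39.5 and 36.4 CPM in WT and 103 and 100 CPM in KO (1.42 ± 0.30 SE, FDR 0.0339). These genes were separated between genotypes in every library. *Il4ra* and *Il21r*, receptors for IL-4 and IL-21, changed by 0.93 ± 0.20 SE (FDR 0.0401) and 0.83 ± 0.18 SE (FDR 0.0349). Each of the 5 calls was lost in at least 1 alternative, with highest FDR values between 0.0989 for *Il7r* and 0.438 for *Il4ra*.

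Costimulatory receptors gave 2 calls among 16, both higher, with a median of -0.04 that became 0.07 with the offset. *Tnfrsf8*, encoding the TNF receptor family member CD30, had 2.65 and 3.37 CPM in WT and 17.7 and 17.8 CPM in KO (2.56 ± 0.44 SE, FDR 0.0122). *Cd28*, the main costimulatory receptor of naive T cells, had 332 and 347 CPM in WT and 525 and 477 CPM in KO (0.56 ± 0.12 SE, FDR 0.0327). Both were separated between genotypes, and both calls were lost without any one of the 4 day 5 libraries (highest FDR 0.134 and 0.282). *Traf5*, an adaptor of TNF receptor signalling, was instead lower, with 16.8 and 29.9 CPM in WT and 10.1 and 8.71 CPM in KO (-1.29 ± 0.29 SE, FDR 0.0436), a call lost in 8 of 18 alternatives.

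In the T cell receptor complex and its proximal signalling, 3 of 32 genes were called higher and 1 lower (median 0.10). *Cd8a*, the alpha chain of the coreceptor, had 832 and 734 CPM in WT and 1216 and 1164.5 CPM in KO (0.60 ± 0.11 SE, FDR 0.0155), while *Cd8b1*, its partner chain, had 1279 and 1199 CPM in WT and 1368 and 1274 CPM in KO (0.09 ± 0.10 SE, FDR 0.753). The 2 chains of the coreceptor thus differed in whether the test was passed, and the difference between them was not tested. *Cd6*, a scavenger receptor family regulator at the synapse, changed by 0.77 ± 0.12 SE (FDR 0.00778). *Txk*, a Tec family kinase, went from 582 and 608 CPM in WT to 407 and 400 CPM in KO (-0.56 ± 0.11 SE, FDR 0.0205). *Cd8a* and *Txk* lost their calls in the fit of the 4 day 5 libraries alone and without either KO library. *Txk* also lost its call without WT replicate 2 or either day 0 WT library, and *Cd6* lost its call without KO replicate 2.

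*Trat1*, *Lat2* and *Arfgef3* were named for the size of their increase. *Trat1*, which stabilises the T cell receptor complex at the surface, had 8.82 and 17.4 CPM in WT and 44.1 and 65.3 CPM in KO (2.099 ± 0.27 SE, FDR 0.00242). *Lat2*, the linker NTAL known from B and mast cells, had 10.1 and 13.01 CPM in WT and 58.3 and 48.7 CPM in KO (2.22 ± 0.30 SE, FDR 0.00326). For *Lat2*, 36.3% of the exon length lies inside exons of the other strand, and since the strand setting of the counting is not given in the sources used here, reads of the 2 strands cannot be told apart. *Arfgef3*, a member of the family of ARF guanine nucleotide exchange factors, had 8.64 and 5.54 CPM in WT and 32.9 in each KO library (2.19 ± 0.28 SE, FDR 0.00254). All 3 stayed called under each of 18 alternatives, which leave out only the 2-fold minimum.

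Cytokines gave 1 call among 11, and it was a decrease. *Ifng*, the effector cytokine interferon gamma, had 16.1 and 7.95 CPM in WT and 3.13 and 2.08 CPM in KO (-2.21 ± 0.47 SE, FDR 0.0429, and -1.59 without WT replicate 1). DESeq2 gave no adjusted p for it, and the call was lost in 7 of the other 17 alternatives, including the offset (FDR 0.0767) and the removal of any one day 5 library (highest FDR 0.385), and 25.9% of the exon length of *Ifng* lies inside another gene of the same strand. *Il24*, chosen after its values were seen, had 11.3 and 10.6 CPM in WT and 1.66 and 4.17 CPM in KO (-1.91 ± 0.49 SE, FDR 0.0759). *Spp1*, which encodes the secreted phosphoprotein osteopontin, was higher in KO, at 29.3 and 27.5 CPM in WT and 128 and 110 CPM in KO (2.06 ± 0.22 SE, FDR 0.000718). The change of *Spp1* was called under each of the 18 alternatives, with 18.8% of its exon length inside another gene of the same strand. Of 15 chemokines and their receptors edgeR called 0 (4 at an unadjusted p under 0.05, against 14.1% of all genes tested), while DESeq2, the edgeR exact test and the fit with a replicate block each called 1. *Ccr7*, the receptor that guides naive cells to lymph nodes, was at 1070.1 and 1043 CPM in WT and 941 and 910 CPM in KO (-0.19 ± 0.10 SE, FDR 0.437).

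The promoters of 4 of these genes are shown because they include the receptor, the granzyme, the secreted protein and the cytokine with the changes described above. Each is the stretch of 250 bases before the RefSeq start on GRCm38 (mm10), 5′ to 3′ on the strand of the gene, with matches to the motif letters searched in capitals.
Pdcd1: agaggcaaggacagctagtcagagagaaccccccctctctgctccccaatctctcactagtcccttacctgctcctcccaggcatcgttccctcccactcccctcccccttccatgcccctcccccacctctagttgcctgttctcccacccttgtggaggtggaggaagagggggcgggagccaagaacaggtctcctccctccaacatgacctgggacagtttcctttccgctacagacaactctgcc
Gzma: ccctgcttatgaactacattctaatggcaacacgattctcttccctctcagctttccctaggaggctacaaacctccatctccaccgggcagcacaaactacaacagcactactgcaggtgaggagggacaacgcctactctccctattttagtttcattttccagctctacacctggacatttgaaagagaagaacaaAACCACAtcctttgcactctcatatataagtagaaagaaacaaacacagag
Spp1: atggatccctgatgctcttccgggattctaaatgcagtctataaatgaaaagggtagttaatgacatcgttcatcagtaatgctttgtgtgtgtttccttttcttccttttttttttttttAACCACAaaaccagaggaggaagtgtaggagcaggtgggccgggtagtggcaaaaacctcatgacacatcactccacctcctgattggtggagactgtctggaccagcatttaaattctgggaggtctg
Ifng: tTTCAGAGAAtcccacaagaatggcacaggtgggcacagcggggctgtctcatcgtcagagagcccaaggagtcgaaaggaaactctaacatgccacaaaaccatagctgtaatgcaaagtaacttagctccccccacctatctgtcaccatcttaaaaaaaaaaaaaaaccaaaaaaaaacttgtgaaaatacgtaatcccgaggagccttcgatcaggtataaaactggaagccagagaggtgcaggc
They lie at chr1:94052554-94052803 (minus strand, *Pdcd1*), chr13:113100982-113101231 (minus, *Gzma*), chr5:104434861-104435110 (plus, the upstream of 2 *Spp1* promoters) and chr10:118440796-118441045 (plus, *Ifng*). The letters searched on both strands were TGANTCA (AP-1), TGTGGTT (RUNX), TTCNNNGAA (STAT) and AAAGGTCA (NR4A). *Gzma* and *Spp1* each hold the RUNX letters as AACCACA, the reverse complement, 51 and 129 bases before the start, *Ifng* holds the STAT letters 249 bases before the start, and the *Pdcd1* stretch and the second *Spp1* promoter hold none of the 4. The RUNX letters occurred in 6.79% of 162 promoters of genes called higher, 5.71% of 35 promoters of genes called lower and 3.34% of 10973 promoters of all tested genes. For AP-1 these shares were 4.94%, 11.4% and 4.20%, for STAT 7.41%, 2.86% and 6.07%, and for NR4A 0.617%, 2.86% and 0.957%. The promoters of genes called lower number only 35, so 1 promoter is worth 2.86%, and these shares are descriptions without a test.

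Of 19 naive and memory factors, 1 was called higher and 2 lower (median -0.17). *Dapl1*, a gene of quiescent naive and memory CD8 cells, had 106 and 123.4 CPM in WT and 53.9 and 40.9 CPM in KO (-1.27 ± 0.15 SE, FDR 0.00166) and kept its call under each of the 18 alternatives. *Tcf7* and *Lef1*, transcription factors of naive and stem-like T cells chosen here after their values were seen, were not called: *Tcf7* had 187 and 210 CPM in WT and 238 and 236 CPM in KO (0.26 ± 0.12 SE, FDR 0.346), and *Lef1* had 218 and 281 CPM in WT and 184 and 171 CPM in KO (-0.49 ± 0.15 SE, FDR 0.139). These 2 factors leaned in opposite directions.

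Among 24 effector and exhaustion transcription factors edgeR called 0, while DESeq2 and the exact test each called 1. An unadjusted p under 0.05 was found for 7 of the 24, against 14.1% of all genes tested. The median of 0.13 shrank to 0.04 with the offset. *Tox*, a factor required for the exhausted state, had 66.1 and 101 CPM in WT and 113 and 133 CPM in KO (0.56 ± 0.18 SE, FDR 0.167). *Batf*, an AP-1 family factor of activated T cells, had 98.1 and 85.8 CPM in WT and 130 and 150 CPM in KO (0.60 ± 0.15 SE, FDR 0.0745). Both were chosen after their values were seen. Both were separated between the genotypes without passing the test, as 45.6% of all genes tested were separated. *Zbtb32*, a zinc finger repressor outside the list and likewise chosen after its values were seen, was called at 136 and 78.3 CPM in WT against 270 and 265 CPM in KO (1.31 ± 0.23 SE, FDR 0.0155).

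*Foxp3*, the defining factor of regulatory T cells, was the 1 call among 16 regulatory T cell genes. It had 23.8 and 9.64 CPM in WT and 51.7 and 61.9 CPM in KO (1.73 ± 0.32 SE, FDR 0.0193, and 2.56 without WT replicate 1). It was lost with the offset and in 5 of the fits that leave out 1 library (highest FDR 0.174), and 18.7% and 18.6% of its exon length overlap exons of the other strand and of another gene on the same strand. *Cd4* had between 3 and 5 counts in each of the 4 libraries, near the floor.

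Among called genes with an assigned name and at least 10 CPM in the higher genotype, the 3 largest decreases were in *Gdpd3*, *Fcgr3* and *Ifi204*. *Gdpd3*, a lysophospholipase D, had 23.8 and 51.6 CPM in WT and 0.184 and 1.14 CPM in KO (-5.79 ± 0.59 SE, FDR 0.000553). Summed over libraries it had 349 counts in WT and 7 in KO, a ratio of 54.4 after scaling (exact 95.0% counting interval 26.1 to 136). The log2 fold change of Gdpd3 at day 5 was -5.01 without KO replicate 1, -7.51 without KO replicate 2 and -5.14 without WT replicate 2. *Fcgr3*, the low-affinity activating IgG receptor, had 11.1 and 12.05 CPM in WT and 0.552 and 0.568 CPM in KO (-4.32 ± 0.53 SE, FDR 0.00182), 113 against 6 counts (ratio 20.6, interval 9.15 to 57.2). *Ifi204*, a DNA sensor of the Ifi200 cluster, had 16.8 and 17.8 CPM in WT and 1.66 and 0.568 CPM in KO (-3.92 ± 0.38 SE, FDR 0.000332), 169 against 12 counts (ratio 15.4, interval 8.57 to 30.3), and without KO replicate 1 its log2 fold change was -4.88. All 3 were nearly silent in KO. *Gdpd3* and *Ifi204* stayed called under each of the 18 alternatives, and *Fcgr3*, for which DESeq2 gave no adjusted p, under the other 17. They were also lower in the libraries labelled KO at day 0 (log2 fold change -6.91, -3.16 and -7.15).

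*Fcgrt*, the neonatal Fc receptor, fell less, from 14.6 and 16.4 CPM in WT to 6.44 and 4.92 CPM in KO (-1.44 ± 0.24 SE, FDR 0.0122). Thus 2 of 3 tested Fc receptor genes were called lower, against 1.63% of all genes called. This short list was chosen with earlier results of these data known, so its count is not independent evidence. *Wdfy1*, an endosomal protein that takes part in Toll-like receptor signalling, had 41.3 and 52.5 CPM in WT and 15.5 CPM in each KO library (-1.59 ± 0.20 SE, FDR 0.00182). *Tlr2*, the receptor of bacterial lipoproteins, went the other way, with 6.70 and 7.47 CPM in WT and 38.3 and 54.2 CPM in KO (2.71 ± 0.28 SE, FDR 0.000612). It was the 1 call among 14 Toll-like receptors and adaptors, whose median was 0.00. *Wdfy1* and *Tlr2* kept their calls under each of the 18 alternatives, whereas *Fcgrt* lost its call without either KO library or WT replicate 2 (highest FDR 0.194).

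Of 41 interferon-stimulated genes, 1 was called higher and 40 were not called (2.44% called, near the 1.63% of all genes), and 29 of the 41 had a negative fold change (median -0.17). The 1 called was *Stat2*, a component of the type I interferon signalling complex, at 29.98 and 33.3 CPM in WT and 54.3 and 67.97 CPM in KO (0.95 ± 0.17 SE, FDR 0.0172). The *Stat2* call was lost without any one of the day 5 libraries, and its log2 fold change ran from 0.78 to 1.11 over the 18 alternatives. *Irgm1*, an interferon-induced GTPase that regulates autophagy, was lower at 253 and 228 CPM in WT and 153 and 117 CPM in KO (-0.83 ± 0.19 SE, FDR 0.0489), the 1 call among 18 such GTPases (5.56%). The *Irgm1* call was lost with the offset and without any one of the day 5 libraries or either day 0 WT library. *Ifitm1*, a membrane protein that restricts viral entry, was among the most abundant called genes, at 768 and 435 CPM in WT and 1799.9 and 1656 CPM in KO (1.52 ± 0.21 SE, FDR 0.00341), and it kept its call under each of the 18 alternatives. All 4 tested Ifitm genes had a positive fold change, of which *Ifitm1* alone was called. *Klrd1*, encoding the NK receptor chain CD94, had 101 and 102 CPM in WT and 52.6 and 55.7 CPM in KO (-0.91 ± 0.14 SE, FDR 0.00681), the 1 call among 5 killer lectin-like receptors tested. The *Klrd1* call was lost without either KO library.

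Genes of the actin cytoskeleton were called higher more often than genes as a whole. This list of 69 tested genes was put together after the values were seen, so its count is not independent evidence: 16 were called higher and 53 were not called (23.2% called against 1.63% of all genes), 53 of the 69 had a positive fold change, and the median was 0.28. With the GC and length offset 13 were called and the median was 0.21. *Myo1f*, a membrane-linked myosin of leukocytes, had 149 and 157 CPM in WT and 456 and 466 CPM in KO (1.59 ± 0.12 SE, FDR 5.69e-05), and its relative *Myo1g* had 138 and 131 CPM in WT and 259 and 308 CPM in KO (1.07 ± 0.13 SE, FDR 0.00182). Both myosins showed KO libraries close to each other and well above WT. *Coro7* and *Gsn*, encoding a coronin and the actin-severing protein gelsolin, changed by 1.51 ± 0.24 SE (FDR 0.0078) and 0.84 ± 0.13 SE (FDR 0.00723). *Plec* and *Tln1*, which tie filaments to junctions and to integrins, changed by 1.18 ± 0.20 SE (FDR 0.0134) and 0.88 ± 0.17 SE (FDR 0.0239). *Arhgdia*, *Dock2* and *Rac2*, which act in small GTPase signalling, changed by 1.06 ± 0.14, 0.68 ± 0.12 and 0.46 ± 0.10 SE (FDR 0.00242, 0.0165 and 0.0378). *Myo1f*, *Myo1g*, *Arhgdia* and *Add1*, a spectrin-binding adducin (0.95 ± 0.11 SE, FDR 0.00182), were the members called under each of the 18 alternatives.

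Of 23 integrin and adhesion genes 1 was called higher and 1 lower, with a median of 0.32 (0.19 with the offset). *Itgal*, the alpha chain of the integrin LFA-1, had 233 and 230 CPM in WT and 381 and 362 CPM in KO (0.68 ± 0.12 SE, FDR 0.0165), while its beta chain *Itgb2*, chosen after its values were seen, had 979 and 916 CPM in WT and 1271 and 1234 CPM in KO (0.40 ± 0.11 SE, FDR 0.0803). Both chains were higher in every KO library, and 45.6% of all genes tested had no overlap between the genotypes. *Itgal* lost its call with the offset, without either KO library and without WT replicate 2. Among 23 annexins, S100 proteins and galectins 3 were called higher and 20 were not called, 18 had a positive fold change, and the median was 0.32. *Lgals3*, the sugar-binding galectin-3, had 190 and 137 CPM in WT and 425 and 463 CPM in KO (1.44 ± 0.20 SE, FDR 0.00341). *Ahnak*, a giant scaffold protein that binds S100A10, and *Anxa6*, an annexin, changed by 0.80 ± 0.13 SE (FDR 0.0078) and 0.58 ± 0.12 SE (FDR 0.0313), the latter lost with the offset.

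Lysosomal genes, also listed after the values were seen, were called higher in 7 of 52 and not called in 45 (median 0.19), and 4 were called with the offset. *Psap*, the precursor of the saposins that help degrade sphingolipids, had 644 and 554 CPM in WT and 1159.8 and 1085 CPM in KO (0.91 ± 0.12 SE, FDR 0.00242) and was the member called under each of the 18 alternatives. *Laptm5*, a lysosomal membrane protein of leukocytes that limits T cell receptor levels, had 546 and 538 CPM in WT and 825 and 888 CPM in KO (0.66 ± 0.11 SE, FDR 0.0121). *Napsa*, an aspartic protease, changed by 1.42 ± 0.25 SE (FDR 0.016), with 18.9% of its exon length inside another gene. *Ctsd*, *Grn* and *Man2b1* (cathepsin D, progranulin and a lysosomal mannosidase) changed by 0.68 ± 0.14, 0.98 ± 0.21 and 0.68 ± 0.13 SE, and these 3 calls were lost with the offset (main FDR 0.03, 0.0365 and 0.0218).

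Among protease inhibitors, *Serpinb1a*, which blocks serine proteases of granules, was 1 call of 9 serpins. It had 54.9 and 91.8 CPM in WT and 328 and 292 CPM in KO (2.09 ± 0.24 SE, FDR 0.00125), and it was also higher at day 0 in the libraries labelled KO (2.88). Carbonic anhydrases, enzymes that hydrate carbon dioxide, gave 3 calls among 7, all higher, against 1.63% of all genes called. This short list was chosen with earlier results of these data known, so its count is not independent evidence. *Car2* had 0.882 and 0.964 CPM in WT and 11.6 and 9.66 CPM in KO (3.51 ± 0.32 SE, FDR 0.000241), 9 against 114 counts (ratio 11.6, counting interval 5.90 to 26.0). *Car12* had 30.7 and 28.0 CPM in WT and 56.1 and 73.8 CPM in KO (1.14 ± 0.26 SE, FDR 0.0472). *Car5a* had 2 counts in WT and 35 in KO (ratio 16.04, counting interval 4.12 to 138; FDR 0.048). *Serpinb1a* and *Car2* stayed called under each of the 18 alternatives, while *Car12* and *Car5a* were lost with the offset and with scaling by library totals. The median of the 7 carbonic anhydrases was 1.14 in the main fit, 1.07 with the offset and 1.11 with library totals.

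**Figure D3:**
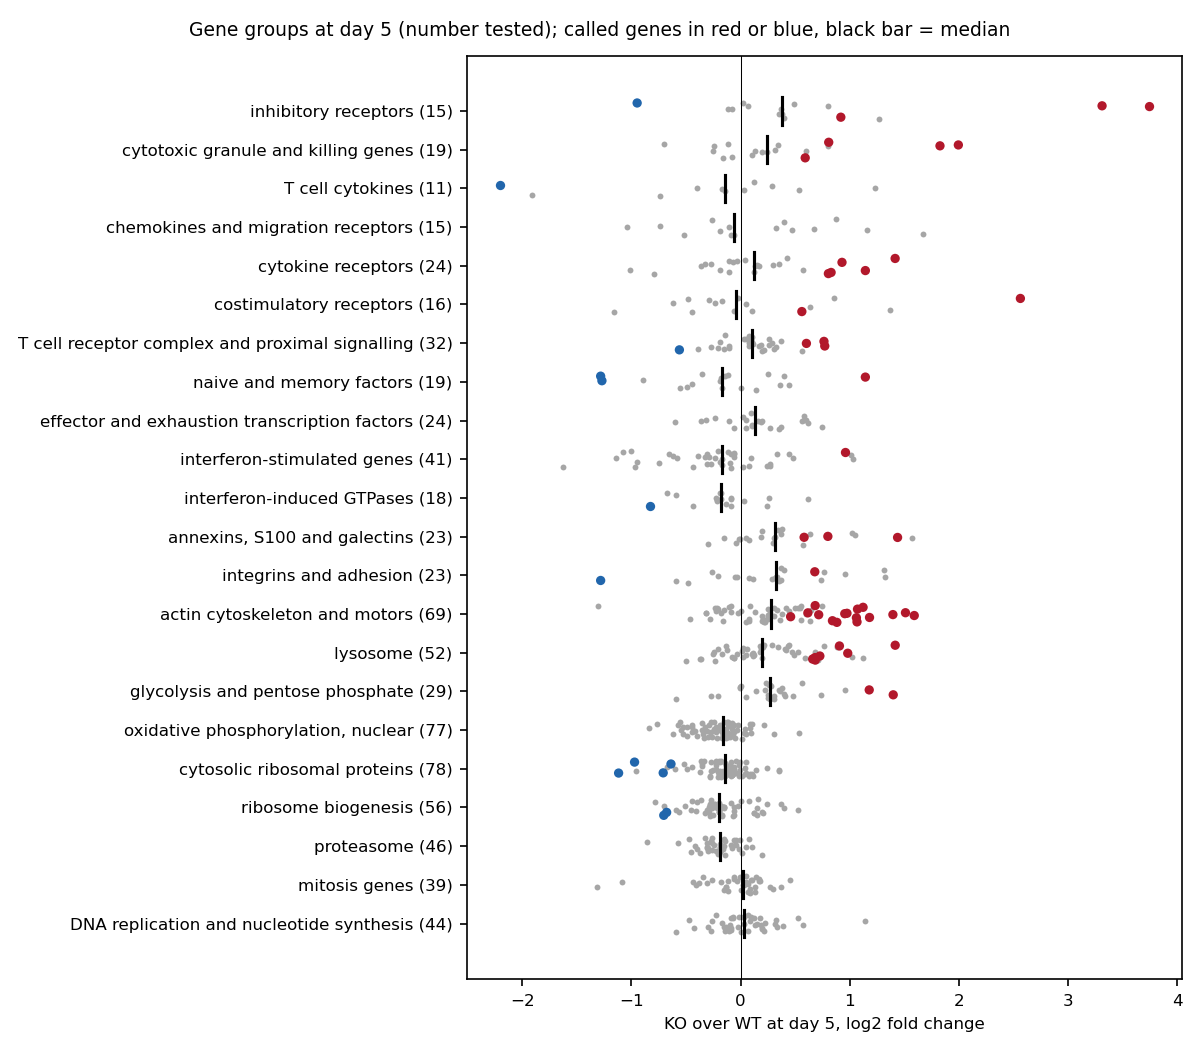
KO over WT log2 fold change at day 5 of every tested gene in 22 gene groups, with the number tested in parentheses, called genes in red (higher) or blue (lower) and the group median as a black bar. Called genes are spread over receptor, killing, actin and lysosome groups, while the proteasome and oxidative phosphorylation groups hold no call and have medians of -0.19 and -0.16.

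Glycolysis and the pentose phosphate pathway had 2 of 29 genes called higher and 27 not called, 24 positive fold changes and a median of 0.27 (0.18 with the offset). An unadjusted p under 0.05 was found for 12 of the 29, against 14.1% of all genes tested. *Hk1*, a hexokinase that traps glucose in the cell, had 85.0 and 61.4 CPM in WT and 139 and 194 CPM in KO (1.18 ± 0.21 SE, FDR 0.0162). *Ldhb*, the lactate dehydrogenase subunit typical of oxidative cells, had 16.1 and 30.6 CPM in WT and 52.6 and 68.5 CPM in KO (1.399 ± 0.25 SE, FDR 0.0165). Both were separated between genotypes. The call for *Hk1* was lost without KO replicate 2 or WT replicate 2. The call for *Ldhb* was lost without KO replicate 2, without WT replicate 1 and in the fit of the 4 day 5 libraries alone (FDR 0.0517). The abundant enzymes *Aldoa* and *Pkm*, chosen after their values were seen, changed by 0.35 ± 0.10 SE (FDR 0.105) and 0.49 ± 0.13 SE (FDR 0.0905) and were not called. Nuclear genes of oxidative phosphorylation had a median of -0.16, with 66 of 77 negative and 0 called by edgeR (21 at an unadjusted p under 0.05, 3 by DESeq2, 3 by the exact test). The proteasome had 41 of 46 negative (median -0.19) and 0 called by edgeR (6 at an unadjusted p under 0.05, 0 by DESeq2, 0 by the exact test). For both lists the share of all genes tested with such a p was 14.1%.

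Of 78 cytosolic ribosomal protein genes, 65 had a negative fold change (median -0.14), 4 were called lower and 74 were not called. *Rps28* had 51.5 and 51.1 CPM in WT and 21.5 and 25.8 CPM in KO (-1.12 ± 0.17 SE, FDR 0.0078), and *Rps29* had 83.8 and 94.7 CPM in WT and 45.1 and 45.8 CPM in KO (-0.97 ± 0.15 SE, FDR 0.00778). Both encode proteins of the small ribosomal subunit, and both calls were lost without either KO library. *Rpl37* and *Rps27* changed by -0.64 ± 0.14 SE (FDR 0.0349) and -0.71 ± 0.15 SE (FDR 0.039). Both of these calls were lost in the fit of the 4 day 5 libraries alone and without either KO library, WT replicate 2 or either day 0 WT library. The call for *Rpl37* was also lost without WT replicate 1, and that for *Rps27* with the offset. These genes have many near-identical pseudogene copies and reads with several alignments were not counted, so their levels are uncertain. Ribosome biogenesis, listed after the values were seen, had 43 of 56 negative (median -0.20) and 2 called lower, *Gnl3* (-0.70 ± 0.16 SE, FDR 0.0474) and *Mphosph10* (-0.68 ± 0.15 SE, FDR 0.0389), both lost with the offset.

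None of 39 mitosis genes and none of 44 replication and nucleotide synthesis genes was called by edgeR (7 and 9 at an unadjusted p under 0.05, 0 and 1 by DESeq2, 1 each by the edgeR exact test, and 2 and 1 with no filter on low counts). Of all genes tested, 14.1% had an unadjusted p under 0.05. *Top2a*, the topoisomerase that untangles replicated chromosomes, had 2476 and 2454 CPM in WT and 2413 and 2613 CPM in KO (0.03 ± 0.19 SE). *Rrm1*, a subunit of ribonucleotide reductase, had 1119.8 and 852 CPM in WT and 995 and 987 CPM in KO (0.01 ± 0.13 SE). Both genes overlapped between the genotypes. *Cdkn1a*, encoding the CDK inhibitor p21, was the 1 call among 18 G1 cyclins and CDK inhibitors, at 227 and 202 CPM in WT and 349 and 380 CPM in KO (0.76 ± 0.13 SE, FDR 0.0131), and was lost without either KO library or WT replicate 2 (highest FDR 0.225). *Bcl2l1*, which encodes the survival protein Bcl-xL, changed by 1.03 ± 0.23 SE (FDR 0.0401), a call lost in 9 of the 18 alternatives.

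The other lists gave few calls or none. In 17 lists with 470 tested genes edgeR called 0, with 91 at an unadjusted p under 0.05, 7 called by DESeq2 and 8 by the edgeR exact test. Over all genes tested, edgeR called 1.63%, and 14.1% had an unadjusted p under 0.05. These lists were the chemokine, transcription factor, mitosis, replication, oxidative phosphorylation and proteasome genes above and the Gimap, Schlafen and Ly6 families, MHC class I and peptide loading, MAP kinase and receptor signalling brakes, TGF-beta and SMAD, Notch, the mitochondrial genome, mitochondrial ribosomal proteins, sterol and fatty acid synthesis, and the unfolded protein response. Values of abundant members overlapped in part: *B2m*, the light chain of MHC class I, had 7228 and 8202 CPM in WT and 6557 and 6469.8 CPM in KO, and *Hspa5*, the chaperone BiP, had 2574 and 1741 CPM in WT and 1835 and 1623 CPM in KO. The genotypes overlapped for *Hspa5* and not for *B2m* (FDR 0.43), and 45.6% of all genes tested had no overlap. Mitochondrial ribosomal protein genes had a negative fold change in 59 of 76 (median -0.13). Immediate early and AP-1 genes had 1 call among 14, *Klf6*, a zinc finger factor, at 740 and 656 CPM in WT and 1211 and 1117 CPM in KO (0.74 ± 0.15 SE, FDR 0.0286). The *Klf6* call was lost without any one of the day 5 libraries or either day 0 WT library (log2 fold change 0.65 to 0.84 over all alternatives). Amino acid and ATF4 genes had 1 call among 27, *Aldh18a1*, an enzyme of proline synthesis (0.64 ± 0.13 SE, FDR 0.0346), which was lost with the offset. The remaining lists each had 1 call, of a gene described elsewhere in the text: SLAM family and SAP adaptors (*Cd244*, 9 tested), Ifi200 genes (*Ifi204*, 8 tested), JAK, STAT and PIM genes (*Stat2*, 14 tested) and metallothioneins and zinc transporters (*Slc30a4*, 19 tested).

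Chromatin enzymes gave 3 calls among 32, all higher, and 3 genes of the list were called with the offset, although the list median was -0.05. *Dnmt1*, the maintenance DNA methyltransferase, had 118 and 97.8 CPM in WT and 191 and 234 CPM in KO (0.98 ± 0.16 SE, FDR 0.00931). *Uhrf1*, which recruits DNMT1 to hemimethylated DNA, had 66.7 and 60.2 CPM in WT and 116 and 146 CPM in KO (1.04 ± 0.19 SE, FDR 0.0169). *Ezh1*, a histone H3 lysine methyltransferase of Polycomb, had 44.1 and 41.9 CPM in WT and 86.1 and 101 CPM in KO (1.12 ± 0.16 SE, FDR 0.00385). Each was higher in every KO library, and each call was lost without KO replicate 2. Of the 8 fits that leave out 1 library, *Dnmt1* was called in 6, *Uhrf1* in 4 and *Ezh1* in 7.

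Of the T cell receptor gamma constant genes *Tcrg-C2* and *Tcrg-C4* rose, though CD8+ T cells mostly use alpha and beta chains. The list of gamma and delta constants was chosen with earlier results of these data known, so its count is not independent evidence. Of 5 gamma and delta constants 2 were called higher: *Tcrg-C2* had 166 and 167 CPM in WT and 288 and 371 CPM in KO (0.99 ± 0.15 SE, FDR 0.00778), and *Tcrg-C4* had 47.1 and 29.2 CPM in WT and 109 and 121 CPM in KO (1.58 ± 0.22 SE, FDR 0.00383). *Trdc*, the delta constant gene of gamma delta T cells, had 27.3 and 45.3 CPM in WT and 29.4 and 21.4 CPM in KO (-0.50 ± 0.27 SE, FDR 0.442), and was not called. *Tcrg-C1*, a further gamma constant, had 107 and 79.5 CPM in WT and 87.7 and 98.1 CPM in KO (-0.01 ± 0.19 SE, FDR 0.991), so its genotypes overlapped. *Tcrg-C3*, at low counts, had 1.94 and 1.69 CPM in WT and 4.23 and 7.20 CPM in KO (1.63 ± 0.58 SE, FDR 0.216). These 3 uncalled constants were chosen after their values were seen. *Sox13* and *Zbtb16*, factors of gamma delta and innate-like cells, had no count in any day 5 library. The gamma constants are close copies of each other and rest on their unique reads, and both calls were lost without KO replicate 2 (highest FDR 0.166 and 0.0502).

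Several called genes outside these groups were chosen after their values were seen. *Chst12*, a chondroitin sulfotransferase, had 68.1 and 56.4 CPM in WT and 143 and 144 CPM in KO (1.20 ± 0.15 SE, FDR 0.00213). *Galnt6*, *B4galt5* and *Mgat1*, glycosyltransferases of the Golgi, changed by 1.07 ± 0.20, 1.02 ± 0.20 and 0.87 ± 0.15 SE (FDR 0.0193, 0.0232 and 0.0142). *Scly*, which releases selenium from selenocysteine, had 33.9 and 30.4 CPM in WT and 101 CPM in each KO library (1.65 ± 0.15 SE, FDR 0.000241), and *Pck2*, the mitochondrial phosphoenolpyruvate carboxykinase, had 22.4 and 24.8 CPM in WT and 69.7 and 68.7 CPM in KO (1.55 ± 0.22 SE, FDR 0.0041). All of these were separated between genotypes. *Trpv2*, a calcium-permeable channel, *Adam8*, a surface metalloprotease, and *Rela*, the p65 subunit of NF-kappaB, changed by 0.85 ± 0.12, 0.99 ± 0.18 and 0.89 ± 0.15 SE (FDR 0.0041, 0.0156 and 0.0122). *Fam46a*, a noncanonical poly(A) polymerase family member, had 3.70 and 4.10 CPM in WT and 17.1 and 16.3 CPM in KO (2.0996 ± 0.28 SE, FDR 0.00286), *Plscr4*, a phospholipid scramblase, had 1.59 and 2.17 CPM in WT and 14.7 and 14.4 CPM in KO (2.96 ± 0.56 SE, FDR 0.0198), and *Nsg2*, a neuronal vesicle protein, had 1.76 and 2.41 CPM in WT and 19.9 and 10.98 CPM in KO (2.90 ± 0.51 SE, FDR 0.0142). Of these last 3, which were named by the rule for large changes, *Fam46a* alone kept its call under each of the 18 alternatives.

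Further genes named for the size of their change fell. *Ncoa7*, a nuclear receptor coactivator, had 43.4 and 44.6 CPM in WT and 19.5 and 13.1 CPM in KO (-1.43 ± 0.24 SE, FDR 0.0122). *Tomm7*, a subunit of the translocase of the outer mitochondrial membrane, had 90.7 and 97.1 CPM in WT and 54.3 and 45.1 CPM in KO (-0.92 ± 0.18 SE, FDR 0.0209). *Slc30a4*, a zinc exporter, had 49.0 and 35.7 CPM in WT and 22.3 and 18.2 CPM in KO (-1.07 ± 0.23 SE, FDR 0.0378). The genotypes were separated in each of them, and each call was lost in some alternatives (highest FDR 0.186, 0.308 and 0.409).

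Some day 5 calls were also made before culture. Of the 205 genes, 36 were also called at day 0, where 1.80% of genes were called. These were 17.6% of the day 5 calls and 15.9% of the day 0 calls, and 154 of the 205 had the same sign at day 0. The direction at day 0 follows the labels, which *Satb1* goes against there. The comparisons share no library but share the error estimate. A test of the difference between the days was passed by 7 of the 205 genes, against 0.159% of all genes, among them *Tlr2*, *Fam46a*, *Chst12* and *Mfsd10*. For *Pdcd1* (FDR 0.0548) and *Cd244* (FDR 0.0565) the test of the difference was narrowly not passed, so that a difference between days was not shown for either. *Tcrg-C2* was also among the 7, with a larger difference at day 0 (2.84) than at day 5 (0.99).

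**Figure D4:**
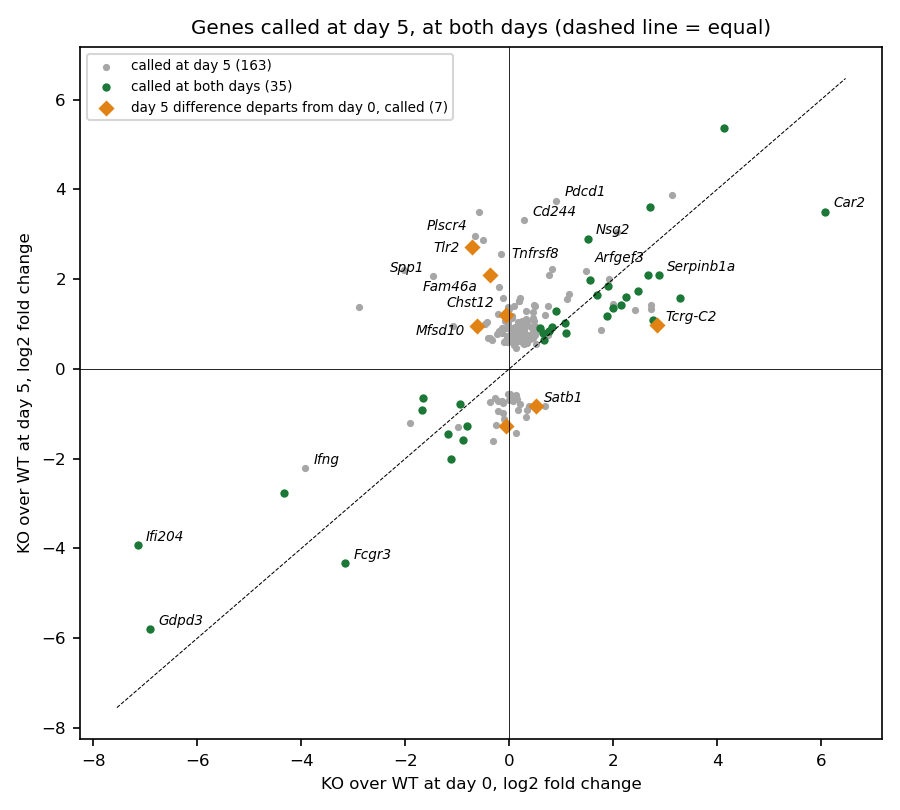
KO over WT log2 fold change at day 0 (horizontal) and at day 5 (vertical) of the 205 genes called at day 5, with 35 also called at day 0 (green) and 7 whose difference between days was called (orange), 1 of which was called at day 0 as well. *Gdpd3*, *Fcgr3*, *Ifi204* and *Car2* lie far from 0 on both axes, while *Pdcd1* lies at 0.91 and *Tlr2* at -0.71 at day 0.

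Fold changes followed the base composition of the genes. Across 12478 genes, which share the same libraries and are not replicates, the Spearman correlation between day 5 fold change and exon GC content was 0.303, whereas for replicate 2 over replicate 1 it was -0.04 in WT and 0.07 in KO. Genes called higher had a median GC content of 53.2% and genes called lower 45.9%, beside 49.9% over all genes. In the decile of genes with the lowest GC the median fold change was -0.18 and in the decile with the highest it was 0.20. With an offset for GC content and exon length these medians became -0.01 and 0.02, 140 genes were called (113 higher, 27 lower), and 127 of them were among the 205. The part of GC content in the results for single genes was not tested beyond this offset.

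**Figure D5:**
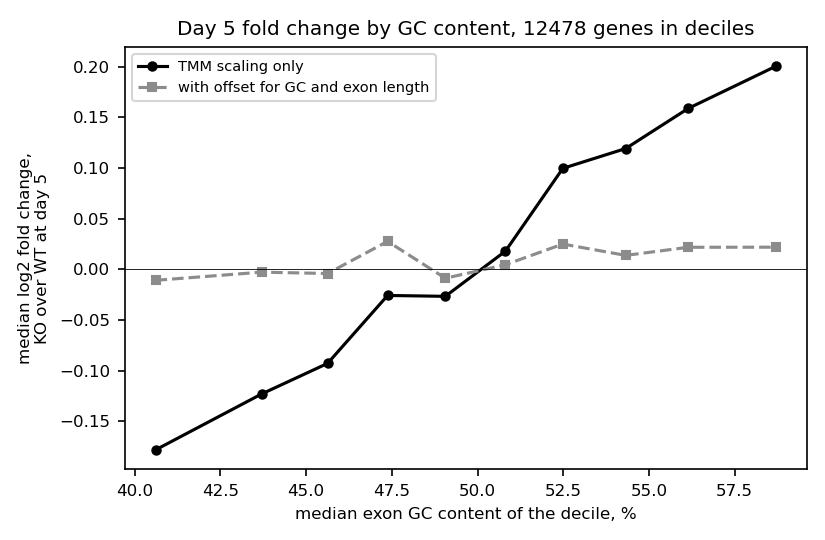
Median KO over WT log2 fold change at day 5 in deciles of 12478 genes ordered by exon GC content, against the median GC content of each decile in percent. With TMM scaling only (black) the medians climb from -0.18 to 0.20, and with the offset (grey) they stay near 0.

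Called genes lay on every autosome and on the X chromosome. Chromosome 1, which holds *Pdcd1*, *Cd244*, *Fcgr3* and *Ifi204*, had 23 calls among 812 tested genes (2.83%), chromosome 13, which holds *Gzma* and *Gzmk*, had 12 of 447 (2.68%), and chromosome 7 had 21 of 938 (2.24%). These shares are descriptions and were not tested against 1.63% over all genes.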

How the data were processed

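RNA of 8 libraries of CD8+ T cells was sequenced to 50-base reads after preparation with an NEBNext Ultra RNA kit, per the labels. The authors deposited, for each library, a table of unnormalized counts by gene symbol. The submitters' processing notes name HISAT2 2.1.0, HTSeq 0.11.1 and mm10 (GRCm38). The annotation and strand setting are not given in the sources used here. The 5 summary lines of each table were left out; reads assigned to genes were 23.5% to 24.5% of records at day 5, and 35.7% to 37.4% had several alignments.

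Counts were tested with edgeR 4.0.16 in R 4.3.3: 1 quasi-likelihood fit of all 8 libraries with a mean per group, TMM factors and the default low-count filter (minimum count 10), leaving 12597 genes (common coefficient of variation 15.0%). No block for the replicate number was used, and whether same-numbered libraries are paired was not settled. Positions, exon overlap and GC content came from GENCODE M21 (GRCm38) for 99.1% of tested genes, and promoters from RefSeq (GRCm38.p6), which held 8627 of the tested genes. Steps were tested on simulated data. Alternatives were DESeq2 1.42.0, other scalings, filters and tests, and leaving out each library.

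Genes named were *Satb1*, the 15 with the largest called change in each direction (at least 10 CPM in the higher genotype, no overlap), called members of 59 gene lists, and the 2 most abundant tested members of lists with no call; genes without an assigned name were only counted. Not all genes so named are described. Others are stated as chosen after their values were seen. Members and lists were chosen with earlier results of these data known, and 3 lists (actin, lysosome, ribosome biogenesis) after these values were seen. Some genes that the rule names are not reported here.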

Additional observations from a re-analysis of the deposited data

Results flagged for a closer look

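The KO over WT difference at day 5 departed from that at day 0, by the genotype by day term of the edgeR quasi-likelihood fit, in 6 called genes that can be given here. Each value is the day 5 log2 difference less the one at day 0.

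For *Tlr2* the difference between days was 3.42 ± 0.41 SE (FDR 0.00794). It had 8.59 and 12.4 CPM in WT and 5.49 and 7.52 CPM in KO-labelled libraries before culture, and only at day 5 did both KO libraries (38.3 and 54.2 CPM) lie above WT. For *Fam46a* it was 2.46 ± 0.35 SE (FDR 0.016). WT libraries held 38.3 and 32.3 CPM at day 0 and 3.70 and 4.10 CPM at day 5, whereas the libraries labelled KO held 23.2 and 32.3 CPM and then 17.1 and 16.3 CPM.

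*Mfsd10*, a transporter of the major facilitator superfamily, differed by 1.57 ± 0.27 SE (FDR 0.0449), with 29.1 and 32.3 CPM in WT and 54.8 and 63.4 CPM in KO at day 5. *Chst12* differed by 1.26 ± 0.21 SE (FDR 0.042) and had between 61.2 and 72.6 CPM in all day 0 libraries. *Satb1* differed by -1.34 ± 0.21 SE (FDR 0.0269), since KO-labelled libraries were above WT before culture and below WT after it. *Tcrg-C2* differed by -1.85 ± 0.30 SE (FDR 0.0303): at day 0 it had 3.04 and 3.17 CPM in WT and 19.99 and 25.1 CPM in those labelled KO.

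The 20 genes that passed this test in the whole table fell to 0 without WT day 0 replicate 1 (1413 at an unadjusted p under 0.05) and to 1 without WT day 0 replicate 2, and DESeq2 called 135.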

How the results depend on the processing

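The 205 genes called at day 5 kept their direction in each alternative that tested them (202 were tested with at least 5 CPM in 2 libraries), and 93 were called under each of 10 other settings. The number called (205, 165 higher and 40 lower) became 351 (273 and 78) with DESeq2, 454 (352 and 102) with the edgeR exact test, 418 (321 and 97) with no filter on low counts and 11 (8 and 3) with a minimum change of 2-fold. Without 1 library it ran from 32 to 249, with 23 to 195 higher and 9 to 54 lower. It was lowest without KO day 5 replicate 2 (32) and KO day 5 replicate 1 (54), 84 without WT day 5 replicate 2, and 121 and 119 without WT day 0 replicates 1 and 2. For KO against WT at day 0 the count of 227 became 449 with the exact test, 28 with the 2-fold minimum and 434 with no filter, and 38 to 276 without 1 library. The 20 interaction calls became 135 with DESeq2, 154 with no filter, 13 with the GC and length offset, 0 by edgeR with the 2-fold minimum (229 at an unadjusted p under 0.05), and 0 to 41 without 1 library. The *Satb1* change (-0.84) did not pass the 2-fold minimum (-0.84) and ran from -0.96 to -0.70 without 1 library. With the offset the fold changes of Ctla4 at day 5 (0.0522) and Gzmb at day 5 (0.0213), neither called, turned positive. With the replicate number as a block 215 genes were called at day 5 (169 higher, 193 shared with the 205) and 29 in the interaction. Deviations of same-numbered libraries correlated by -0.0165 between the day 5 groups, 0.228 between the KO groups of the 2 days and 0.118 between the WT groups of the 2 days. With only 2 libraries a group, these values cannot exclude that replicate numbers pair the samples across days. Except where the construction shows it (fewer genes or libraries), the cause was not tested. With 2 libraries per genotype, differences in genes near the floor of 3 counts in both genotypes may have been missed, which was not tested. Genes near the floor in 1 genotype only, such as *Fcgr3*, could be called.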

Other observations

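Further called genes at day 5, chosen after their values were seen, belong to none of the groups described. *Tnip1*, an inhibitor of NF-kappaB signalling, had 51.3 and 61.0 CPM in WT and 90.7 and 89.4 CPM in KO (log2 fold change 0.68 ± 0.15 SE, FDR 0.0365 by edgeR's quasi-likelihood test). *Trgv2*, a T cell receptor gamma variable segment, had 59.3 and 70.4 CPM in WT and 113 and 162 CPM in KO (1.09 ± 0.21 SE, FDR 0.0232). *Xrcc4*, the partner of DNA ligase IV in end joining, had 69.1 and 74.7 CPM in WT and 46.0 and 41.8 CPM in KO (-0.71 ± 0.15 SE, FDR 0.0349). The genotypes did not overlap for any of the 3.

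*Slamf7* and *Iigp1*, a SLAM family receptor and an interferon-induced GTPase, were not called, although both were abundant. *Slamf7* had 498 and 393 CPM in WT and 578 and 590 CPM in KO (0.39 ± 0.16 SE, FDR 0.296). *Iigp1* had 774 and 450 CPM in WT and 496 and 271 CPM in KO (-0.68 ± 0.44 SE, FDR 0.545), so that its genotypes overlapped.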
